A study of Mus musculus with 20 samples.

Results

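The genes described here are 10 components of interleukin-6 (IL-6) and interleukin-1 (IL-1) signaling in mouse liver. They are the receptors Il6ra, Il6st, Il1r1 and Il1rap, the kinases Jak1 and Jak2, the adaptor Myd88, the transcription factor Stat3 and the inhibitors Socs3 and Nfkbia. They were chosen by gene symbol, and all 10 were found among the 56884 genes of the male RNA-seq table and the 18149 genes of the female one. Each symbol carried the same Ensembl gene identifier in both tables.

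RNA-seq was performed on whole liver, with 3 WT and 3 Midn-T samples per sex from mice aged 11 to 14 weeks. WT livers carry the genotype label Midn XTR, the expressed configuration of a gene-trap cassette in intron 2 of Midn. Midn-T livers carry the label Midn TR, in which Albumin-Cre has inverted the cassette and trapped the transcript. The authors describe inactivation by Albumin-Cre as selective for hepatocytes. The state of the cassette in other liver cells is not given by the labels. The labels do not say whether WT livers also carried Albumin-Cre. Midn encodes midnolin, a nuclear protein that brings proteins to the proteasome without ubiquitin.

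Each table gives 1 usable level per gene, the authors' mean normalized count over the 6 samples of 1 sex, both genotypes together. The levels below therefore describe the livers of each sex as a whole, and WT is not set against Midn-T here. No spread between mice can be computed from these means, so no difference below carries a test. The 2 tables were also normalized separately. Sex and anything else that differs between the tables cannot be told apart, and the part of genotype in a difference between them was not tested. Depth per library is unknown. The means summed to 3.03e+07 in the male table and 3.08e+07 in the female table. The female table lists no gene with a mean under 6.61. Xist, the RNA that silences an X chromosome in female cells, had a mean of 14.0 in the male table and 72478 in the female one. Midn itself had means of 1672 and 1357, which pool trapped and untrapped alleles and check neither genotype label.

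IL-6 binds its receptor Il6ra, and the pair engages Il6st (gp130), the chain that signals for the whole IL-6 family. Janus kinases attached to Il6st then phosphorylate Stat3, which enters the nucleus and switches on acute-phase genes in hepatocytes. IL-1 binds Il1r1, which recruits the accessory chain Il1rap and the adaptor Myd88 and leads to activation of NF-kB. Both pathways induce their own brakes. Stat3 induces Socs3, which blocks Janus kinases at Il6st, and NF-kB induces Nfkbia, which holds NF-kB in the cytoplasm.

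The promoters of these feedback inhibitors are shown because each pathway's own factor is known to act on its inhibitor. The windows hold the 250 bases before the start of the canonical transcript in GRCm39, with the GENCODE M39 annotation. They were searched on both strands for TTCNNNGAA, the spaced palindrome read by STAT factors, and for GGANTTTCC, a core that NF-kB reads. The window of Nfkbia, chr12:55539433-55539682 on the minus strand, held 2 matches to the NF-kB core, printed in capitals.
Nfkbia: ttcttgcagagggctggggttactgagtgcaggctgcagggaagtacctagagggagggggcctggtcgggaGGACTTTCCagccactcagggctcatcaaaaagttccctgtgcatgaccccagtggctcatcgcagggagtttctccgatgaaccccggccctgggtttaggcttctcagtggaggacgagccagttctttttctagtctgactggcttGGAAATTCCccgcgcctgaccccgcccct

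The first match began 178 bases before the start of Nfkbia. The second began 29 bases before it and reads as the core on the opposite strand. Of the 10 members, only Nfkbia held this core, against 1.18% of the windows of 21757 protein-coding genes. The STAT palindrome was found in the windows of 2 of the 10 members, Socs3 and Jak2, against 7.70% of all windows. Of the 61 other pathway genes described below, 2 held the STAT palindrome and 3 the NF-kB core. The match of Socs3 lies at chr11:117860338-117860346 on the minus strand, within an exon of another annotated Socs3 transcript. The match of Jak2 lies at chr19:29228539-29228547 on the plus strand, outside the exons of Jak2. Both are shown with 10 bases on either side and the match in capitals.
Socs3: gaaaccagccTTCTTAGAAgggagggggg
Jak2: aagcggtcccTTCGCAGAAgtggtggtta
No match to one motif overlapped a match to the other. A match describes letters in the reference and not binding in these livers.

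To place the members on a common scale, each mean was divided by the length in kb of the combined exons of its gene. The lengths are from GENCODE M39, whereas the authors counted reads on a different annotation release. All 10 members lay above the median of the genes compared, which was 61.4 per kb in males and 63.7 per kb in females. These genes are the 16283 with a mean of at least 10 in both tables, and 16213 of them have a length in the annotation. The median member stood at the 87.6th percentile in males and the 85.0th percentile in females. Levels per kb of the members spanned 8.99-fold in males, from Socs3 to Nfkbia, and 9.35-fold in females, from Socs3 to Il6st.

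**Figure D1:**
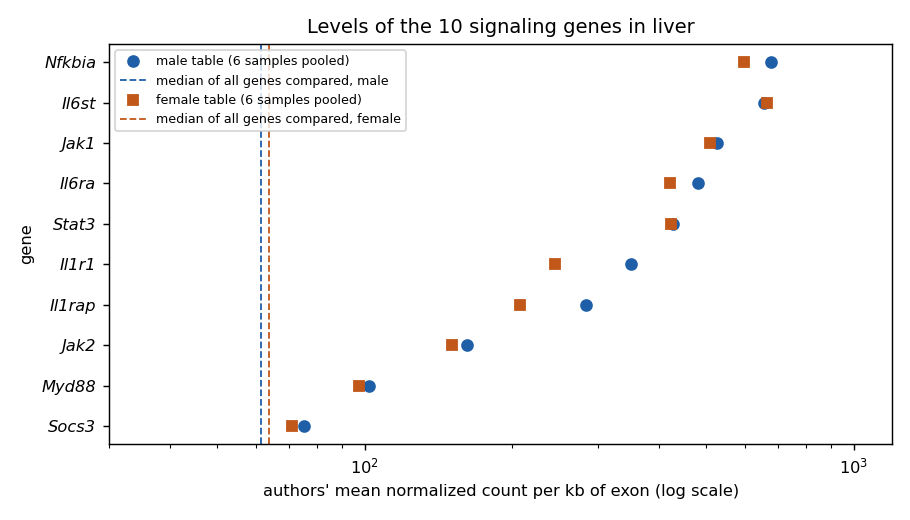
The authors' mean normalized count per kb of exon (log scale) for each of the 10 members in the male (circles) and female (squares) tables, each point 1 mean over 6 samples with no error available. Dashed lines mark the medians of all genes compared, 61.4 in males and 63.7 in females, and every member lies to their right.

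Among the receptors, Il6st was the highest in both sexes. Il6st (ENSMUSG00000021756, chromosome 13, 112600604 to 112646620, 17 exons in the canonical transcript) had a mean normalized count of 10181 in males and 10334 in females, or 656 and 665 per kb. Il6ra (ENSMUSG00000027947, chromosome 3, 89771366 to 89820719, 10 exons) had means of 4264 and 3722, or 481 and 420 per kb. The signaling chain thus exceeded the ligand-binding chain 1.36-fold per kb in males and 1.58-fold in females. The combined exons of Il6st are much longer than its longest transcript. With the length of the longest transcript in place of combined exons, the same ratios were 2.32 and 2.70.

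Per kb of combined exons, the IL-1 receptor chains stood below those of IL-6. In undivided counts Il1rap was just above Il6ra in males, at 4324 against 4264, and below it in females, at 3169 against 3722. Il1r1 (ENSMUSG00000026072, chromosome 1, 40264174 to 40356417, 11 exons), which binds IL-1, had means of 2386 in males and 1672 in females, or 350 and 245 per kb. Its partner Il1rap (ENSMUSG00000022514, chromosome 16, 26400350 to 26548880, 11 exons) had means of 4324 and 3169, or 283 and 207 per kb. Which chain of this pair is higher depended on the length used. Il1rap was at 0.808 of Il1r1 in males and 0.845 in females per kb of combined exons, and at 1.26 and 1.32 times Il1r1 with the longest transcript. The ratio of Il6ra to Il1r1 was above 1 by either length, at 1.37 in males and 1.71 in females per kb of combined exons.

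Of the Janus kinases, Jak1 was the more abundant. Jak1 (ENSMUSG00000028530, chromosome 4, 101008838 to 101122487, 25 exons) had means of 5695 in males and 5493 in females, or 526 and 507 per kb. Jak2 (ENSMUSG00000024789, chromosome 19, 29228677 to 29290505, 24 exons) had means of 1025 and 957, or 162 and 151 per kb. Jak1 exceeded Jak2 3.25-fold per kb in males and 3.36-fold in females, so the pair kept nearly the same proportion in both tables. With the length of the longest transcript the ratios were 5.12 and 5.29. Both kinases attach to Il6st, and Jak2 also signals for growth hormone.

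Stat3, the factor that both kinases activate, and Myd88, the adaptor of the IL-1 receptor, differed in level. Stat3 (ENSMUSG00000004040, chromosome 11, 100775924 to 100830450, 24 exons) had means of 4312 in males and 4279 in females, or 427 and 424 per kb. Myd88 (ENSMUSG00000032508, chromosome 9, 119165000 to 119170486, 6 exons) had means of 397 and 379, or 102 and 97.6 per kb. Stat3 thus lay at the 88.8th percentile in both tables and Myd88 at the 62.3rd in males and the 60.9th in females.

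The feedback inhibitors differed widely in level per kb. Nfkbia (ENSMUSG00000021025, chromosome 12, 55535332 to 55539432, 6 exons), whose promoter window held both NF-kB cores, had means of 1310 in males and 1155 in females, or 676 and 596 per kb. Socs3 (ENSMUSG00000053113, chromosome 11, 117856905 to 117860898, 2 exons) had means of 268 and 253, or 75.2 and 71.1 per kb. Nfkbia exceeded Socs3 8.99-fold per kb in males and 8.38-fold in females. Stat3, the inducer, exceeded Socs3 5.68-fold and 5.96-fold.

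The order of the members per kb in males was Nfkbia, Il6st, Jak1, Il6ra, Stat3, Il1r1, Il1rap, Jak2, Myd88 and Socs3. In females Il6st stood before Nfkbia and Stat3 before Il6ra, and the other members kept their places. The neighbours Nfkbia and Il6st in males, and Stat3 and Il6ra in females, were close, and without a spread none of the steps can be said to exceed variation between mice. Jak2, Myd88 and Socs3 were the lowest 3 in males by each of the 3 scales tried, combined exons, longest transcript and undivided counts. The order of the 7 above them moved with the length used.

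To ask how the members compared between sexes, the female mean was divided by the male mean for every gene, and log2 ratios were centred on the median gene. The median before centring was 0.05, a shift in favour of females. A gene was counted as past the fold at 1.5-fold or more in either direction, which is 0.58 on the log2 scale. None of the 10 members was past this fold, where 7.31% of all genes compared were higher in females and 4.31% were lower. After centring, the log2 ratio was below 0 for all 10 members, with a median of -0.14 against 0 for all genes, which centring fixes. Without centring, the ratio of Il6st was 0.02, above 0, and the other 9 stayed below. The median size of the log2 ratio, without its sign, was 0.14 for the members and 0.20 for all genes compared.

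**Figure D2:**
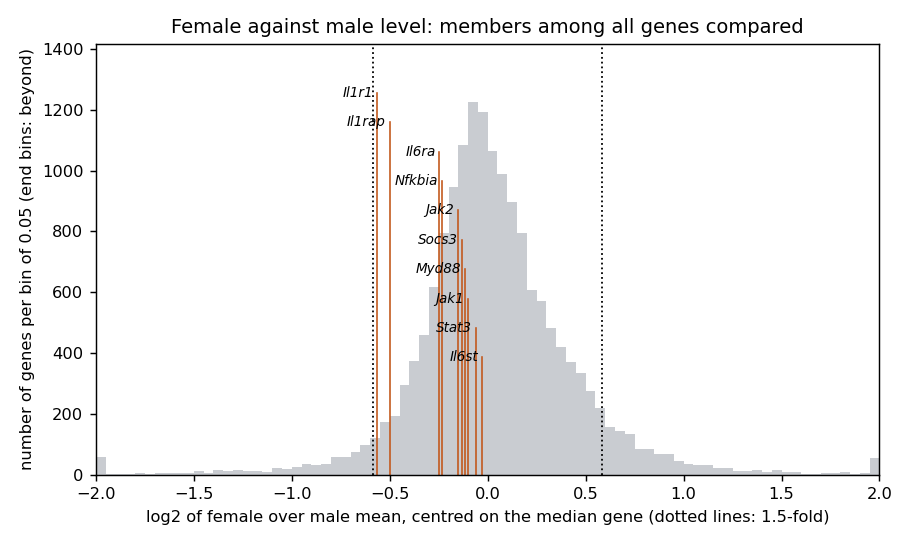
Histogram of the centred log2 ratio of female over male mean for the 16283 genes compared, in bins of 0.05, with genes beyond the axis placed in the end bins, and a line for each of the 10 members. Dotted lines mark 1.5-fold, and all members fall between them, with Il1r1 at -0.56 and Il1rap at -0.50 nearest to the lower line.

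Both chains of the IL-1 receptor had the lowest ratios of the members. The centred log2 ratio of Il1r1 was -0.56, or a level 1.48-fold higher in males, and 4.62% of all genes compared had a ratio this low or lower. That of Il1rap was -0.50, or 1.41-fold higher in males, and 5.91% of all genes had a ratio as low. Il1r1 thus lay just inside the fold. At the lower fold tried as an alternative, 2 of the 10 members passed, both chains of the IL-1 receptor. At that lower fold 31.1% of all genes passed in either direction, so passing it does not set these chains apart. Myd88, which acts directly behind these chains, had a ratio of -0.11.

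Among the other members, Il6ra had a centred log2 ratio of -0.25, with 18.1% of all genes as low or lower, and Nfkbia one of -0.23. Jak2, Socs3 and Jak1 had ratios of -0.15, -0.13 and -0.10. Stat3 and Il6st were the nearest to the median gene, at -0.06 and -0.03. The signaling chain and the transcription factor of the IL-6 pathway therefore had almost equal means in both tables, while its ligand-binding chain was 1.19-fold higher in males after centring.

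The setting of the members is given by 61 other genes of both pathways in 9 lists. Of these, 54 were compared, and the other 7 had means under 10 in males and are not listed in the female table. These 7 are the ligands Il6, Il11, Lif, Osm and Il27, the decoy receptor Il1r2 and the IL-33 receptor Il1rl1. Il6, the ligand of Il6ra, had a mean normalized count of 3.11 in males. The others ranged from 0.794 for Osm to 5.51 for Il27. Il6ra, with a mean of 4264 in the same livers, was thus far more abundant than its ligand. Whole liver was measured, so a low mean cannot separate few producing cells from little RNA per cell.

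**Figure D3:**
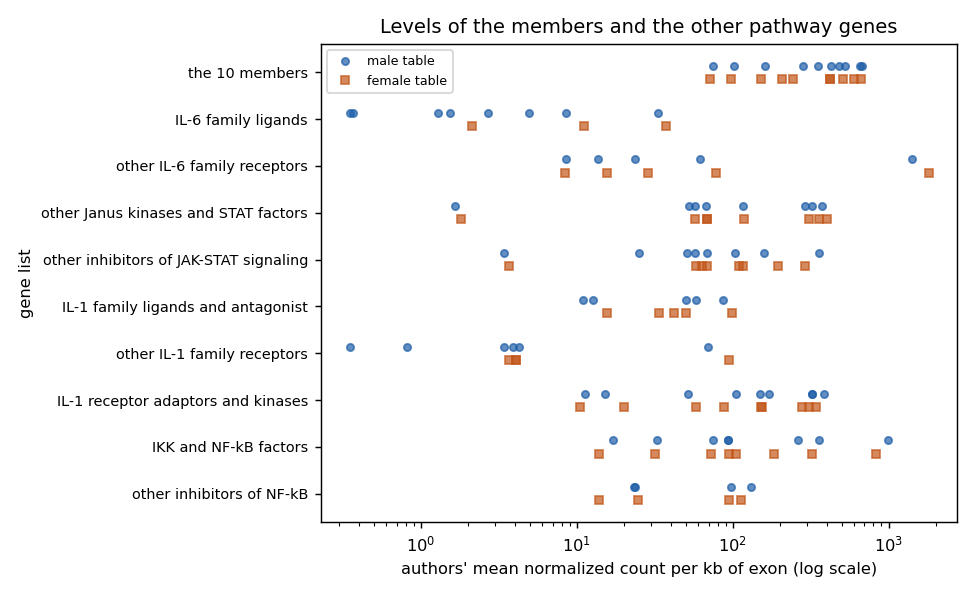
The authors' mean normalized count per kb of exon (log scale) for the 10 members and the genes of 9 other pathway lists, with 1 point per gene, circles for the male and squares for the female table. The IL-6 family ligands and most other IL-1 family receptors lie left of the members, while Lifr reaches 1418 in males and 1803 in females.

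Of the IL-6 family ligands, Ctf1 (cardiotrophin) was the highest of the 3 compared, at 33.4 per kb in males, and Cntf the lowest at 2.68. Among the other receptors that pair with Il6st, Lifr, the receptor of leukemia inhibitory factor, stood above all members at 1418 per kb in males and 1803 in females. It exceeded Il6st 2.16-fold in males and 2.71-fold in females. Cntfr was the lowest of this list at 8.48 per kb in males. The list of other Janus kinases and STAT factors ran from Stat4 at 1.65 per kb to Stat2, which acts in interferon signaling, at 373. None of the 3 ligands, 5 receptors or 8 kinases and factors compared was past 1.5-fold between the sexes.

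The IL-1 ligands were measured in both tables. Il1a had means of 204 in males and 174 in females, and Il1b, the inducible form, 130 and 109. Il18 was the highest of the 5 genes of this list at 86.7 per kb in males, and Il33 the lowest at 11.0. The other IL-1 family receptors ranged from Il18r1 at 3.43 per kb to the inhibitory receptor Sigirr at 69.7, and none of the 4 compared was past the fold. Adaptors and kinases behind the receptor ranged from Irak3, an inhibitor, at 11.3 per kb to Tollip at 384, with 9 of 9 compared and none past the fold. Of the IKK and NF-kB factors, Chuk (IKK alpha) was the highest at 988 per kb in males and Relb the lowest at 17.0, and none of the 8 was past the fold. Among the other NF-kB inhibitors Nfkbib was the highest at 132 per kb in males, and Nfkbia exceeded it 5.13-fold in males and 5.27-fold in females.

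Of the 54 compared, 3 were past 1.5-fold with higher means in females and 1 with a lower mean, beside the shares of 7.31% and 4.31% of all genes. The 3 are the inhibitors Socs2 and Cish and the IL-1 receptor antagonist Il1rn. Over all 54, the centred log2 ratio had a median of -0.03, with 24 above 0 and 30 below.

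The 8 other inhibitors of JAK-STAT signaling ranged from Socs1 at 3.41 per kb in males to the phosphatase Ptpn11 at 357. Socs2 and Cish are relatives of Socs3 that restrain growth hormone signaling through STAT5. Socs2 had means of 385 in males and 1051 in females, 2.64-fold higher in females after centring. Cish had means of 367 and 709, 1.87-fold higher in females after centring. Socs3 was within the fold, with means of 268 and 253. Within each table, which needs no scaling between them, Socs2 was at 0.335 of Socs3 per kb in males and 0.969 in females, and Cish at 0.760 and 1.55. With the length of the longest transcript Socs2 was at 0.666 of Socs3 in males and 1.92 times Socs3 in females, so whether Socs2 stood above Socs3 in females depended on the length used.

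Il1rn blocks IL-1 by occupying Il1r1. It had means of 70.9 in males and 188 in females, 2.56-fold higher in females after centring. With the lower mean of Il1r1 in females, the ratio of receptor to antagonist within a table was 27.4 per kb in males and 7.24 in females, and 13.5 and 3.58 with the length of the longest transcript. Tnfaip3 (A20), an NF-kB-induced enzyme that shuts off NF-kB signaling, had the only mean past the fold in the other direction, 225 in males against 135 in females, or 1.72-fold higher in males after centring. Ikbkg, a subunit of the IKK complex encoded on the X chromosome, lay just inside the fold, 1.48-fold higher in males after centring.

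**Figure D4:**
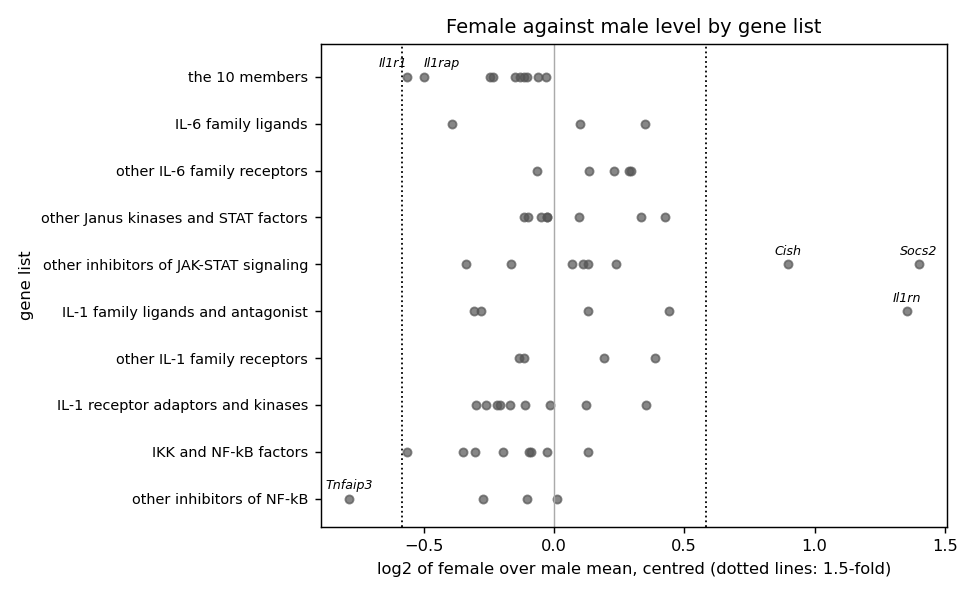
Centred log2 ratio of female over male mean for the 10 members and the 54 other pathway genes compared, by list, with 1 point per gene. Dotted lines mark 1.5-fold, and Socs2 (1.40), Il1rn (1.35) and Cish (0.90) lie beyond the upper line and Tnfaip3 (-0.79) beyond the lower one.

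The liver label was checked against cell type markers. Hepatocyte markers were at the 98.5th percentile or above in both tables, led by Alb (albumin). Other liver cells also express members of both pathways, and their markers were present. The 6 Kupffer cell markers summed to 9309 in males and 9619 in females, and all 6 were above 10 in both. Of these, only Marco was past the fold, 1.57-fold higher in males after centring. Vsig4 and Clec4f had centred log2 ratios above 0, at 0.32 and 0.15. Cd5l, Adgre1 and Csf1r had ratios of -0.12, -0.05 and -0.04, and the median of the 6 was -0.04. The 5 sinusoidal endothelial markers summed to 10822 and 12434, and the 5 stellate cell markers, all with ratios above 0, to 11748 and 15389. Of the endothelial markers, 4 had ratios above 0, and Lyve1 had a centred log2 ratio of -0.48. Cholangiocyte markers summed to 326 and 337 and lymphocyte markers to 114 and 126. Of the 4 cholangiocyte markers, Krt19 and Krt7 were past the fold towards females, Krt7 only just, at male means of 19.7 and 22.1. Epcam was within the fold, with a centred log2 ratio of 0.47. Sox9, which had the highest mean of this list, 245 in males, had a ratio of -0.28. Of the 4 neutrophil markers, the defining gene Ly6g had a mean of 0.145 in males and, like Retnlg, is not listed in the female table. S100a8 and S100a9 had means of 16.1 and 27.6 in males and 9.45 and 16.5 in females. S100a9, the only neutrophil marker compared, was past the fold, 1.73-fold higher in males after centring. The part of cell composition in the ratios of the members was not tested.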

How the data were processed

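Whole-liver RNA-seq of 12 samples was used. The authors mapped reads of rRNA-depleted RNA to GRCm39 with STAR, counted unique reads per Ensembl gene by strand with HTSeq, and divided counts by DESeq2 size factors within each sex. The deposited signal values used here are the means of these normalized counts over the 6 samples of 1 sex. The authors' tables also hold the log2 fold change, standard error, statistic and p-values of their own DESeq2 comparison of WT with Midn-T, and these columns were not used. The 2 ATAC-seq lists hold only windows past the authors' thresholds with a direction and were not used. Depth per library is unknown. No interval could be given, because each gene has 1 mean per sex.

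Genes were joined by Ensembl identifier, and all 105 listed genes matched GENCODE M39. The authors counted reads on a different Ensembl release, so some exons in the lengths may not have been counted. The effect of this on levels per kb was not tested. Ratios between the sexes used genes with a mean of at least 10 in both tables and a fold of 1.5. Both settings, the scaling and the gene length were varied. Python 3.11.15, pandas 2.3.3 and numpy 2.4.6 were used. Named genes are the members, the highest and lowest gene per kb of each pathway list in males, genes past the fold and genes absent from a table. Some cell type markers within the fold are named as well. Il1a, Il1b and Ikbkg were named after their values were seen. The members and lists were chosen with earlier results of these data known.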

Additional observations from a re-analysis of the deposited data

How the results depend on the processing

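The count of members past the fold between sexes was 0. It stayed 0 without centring, with means as shares of the table sum, with a minimum mean of 100 and on autosomes only. Under these settings 12.4%, 12%, 7.33% and 11.6% of all genes passed, in that order. A fold of 2, which 3.49% of all genes passed, could only give 0 again. The count was 1 (Il1r1) without a minimum mean, where more genes of low mean set the centre and 14.6% of all genes passed. It was 2 (Il1r1 and Il1rap) at the lower fold tried, which 31.1% of all genes passed. The count of other pathway genes past the fold was 4. It was 2 (Socs2 and Il1rn) at a fold of 2, 14 at that lower fold, 5 without a minimum mean and 3 with a minimum of 100, and stayed 4 under the other alternatives. Of the 10 members, 3 kept their place in the male order of levels when the longest transcript gave the length, and 4 when counts were not divided by length. Among protein-coding genes alone, the median percentile of the members in males was 85.7. No paired analysis was possible because the tables hold 1 mean per gene and sex, and for the same reason no replicate could be left out. What the depth limits is not known, since the tables give no library totals, and genes under a mean of about 6.61 are not listed for females.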
